A study of Mus musculus with 5 samples.

Results

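The liver of the mouse embryo was set against the dorsal pancreas of the same age, locus by locus, in the 12375 named loci of a table that held 14053 loci. A locus entered when the table gave it a gene name, and no measured value decided which loci were compared. The liver and the dorsal pancreas libraries both came from C57BL/6J embryos at E10.5 (age in embryonic days), with 1 library per tissue. The series held 3 further libraries of the same strain, from ventral pancreas at E10.5 and from foregut and medial foregut at E8.5, and these are used here for context only. Poly(A) RNA was sequenced from both ends on an Illumina HiSeq, and the sources used here do not give how the tissues were dissected or how many embryos were pooled.

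Liver and pancreas both grow from the endoderm of the foregut. The liver bud forms in ventral endoderm that meets the developing heart and the septum transversum mesenchyme, and its hepatoblasts soon begin to make plasma proteins while blood-forming cells move in. The dorsal pancreatic bud forms on the opposite side of the gut, next to the notochord at first and then to the dorsal aorta, and does not border the liver. It carries Pdx1 and Ptf1a, and its first hormone cells make glucagon.

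Values are FPKM, which are fragments scaled to transcript length and to the mapped fragments of the library and so allow levels to be set against each other between genes. A difference is the log2 of (liver FPKM + 1) over (dorsal pancreas FPKM + 1), so that a positive one is higher in liver, and it understates the change of genes with low levels. A locus was counted as higher or lower in liver when the difference reached 2, a factor of 4 on that scale, and the higher library stood at 5 FPKM or more. Counts are also given where they moved by over 1.5 times under 2 stricter settings, a pseudocount of 5 FPKM (the larger pseudocount) and a minimum of 20 FPKM in the higher library (the higher minimum). A locus was called measured when the mean of both libraries was at least 1 FPKM. With 1 library per tissue no test was possible, no value has a replicate error, and a difference describes these libraries. The read depth is unknown because the values are not counts. Where a library holds several cell types, fewer cells of a type and less RNA per cell cannot be told apart.

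Of 10975 measured loci, 262 were counted as higher in liver and 414 as lower, which is 2.39% and 3.77% of the measured loci, or 2.12% and 3.35% of all named loci. The median difference over measured loci was -0.15, percentiles 25 and 75 were -0.61 and 0.29, and percentiles 5 and 95 were -1.84 and 1.297. Differences of at least 3 were found at 240 measured loci and of at least 5 at 43. The same rule applied to medial foregut over foregut counted 1 locus as higher and 5 as lower. Loci higher in liver were 38.8% of those counted, and this share was 28.3% after both libraries were rescaled to the same total and 48.8% after rescaling by the median of ratios. The first rescaling moved the median difference to -0.36 and the second to 0.06, so single differences are read relative to that median. The first rescaling also raised the values of both libraries, while the pseudocount, the level rule and the rule for measured loci stayed fixed. These rules were thus looser under it, and measured loci rose from 10975 to 11845. Its share and its median mix this with the scaling between libraries. Among loci at 100 FPKM or more in the higher library, 51 were higher in liver and 11 lower, against 106 higher and 255 lower among those from 5 to below 20 FPKM. The loci higher in liver held 6.81% of the liver library's summed FPKM and 0.675% of the dorsal pancreas library's, and the loci lower in liver held 0.259% of the liver sum and 3.65% of the dorsal pancreas sum. Among the genes named, the intervals of Mttp, Pklr, Ptprn2, Irx2, Cldn7, Gli1, Wnt5b, Nkx2-3, Csf1r and Foxa1 to Foxa3 overlap another locus, Ins1 is under 1000 bases long, and the protocol describes no strand marking, so reads of such neighbours can be shared whatever their strand. Among the counted loci 27 spanned over 5 times the annotated gene, and of the genes named below these include Apoa2, Serpind1, C1s, Sox9, Pax6, Arg1, Celf3, Cldn3, Cldn4, Cldn7 and Foxf1a.

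**Figure D1:**
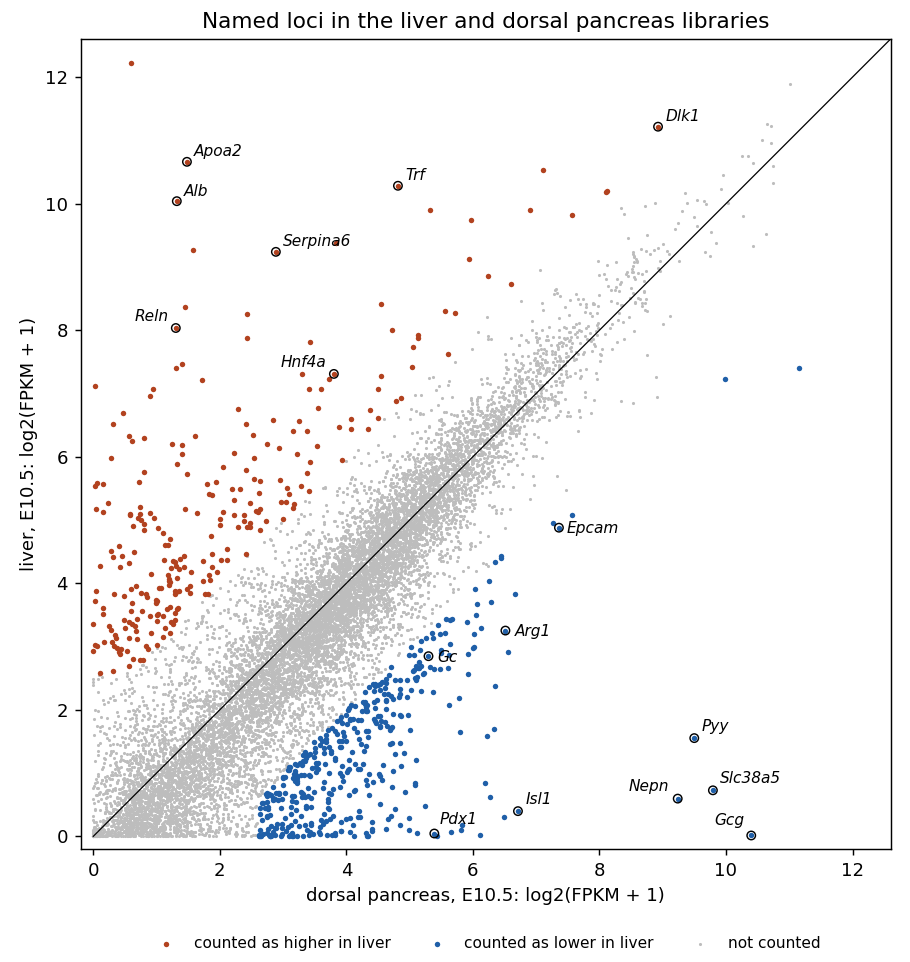
Each point is 1 named locus, with its level in liver on the vertical axis and in dorsal pancreas on the horizontal axis, both as log2(FPKM + 1), and the line marks equal levels. The 262 loci counted as higher in liver lie above the line and reach the top of the liver axis, while the 414 counted as lower lie below it, many of them along the foot of the plot.

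The labelled tissues carried their defining genes. Alb, which encodes serum albumin (chr5:90889928-90905626 in mm9, the build of the table), had 1051 FPKM in liver and 1.497 FPKM in dorsal pancreas. Hnf4a, the nuclear receptor that hepatocytes need, had 158 FPKM in liver and 12.95 FPKM in dorsal pancreas. Pdx1, the homeobox factor of all pancreatic lineages, had 0.0313 FPKM in liver and 40.9 FPKM in dorsal pancreas, and Ptf1a, the factor of pancreatic progenitors and acinar cells, was listed at 0 in liver with 8.32 FPKM in dorsal pancreas. Gcg, the glucagon gene (chr2:62312638-62321998 in mm9), had 0.00929 FPKM in liver and 1349 FPKM in dorsal pancreas. The hepatic pair was thus high in the liver library and the pancreatic genes were high in the dorsal pancreas library.

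The furthest loci on the liver side were mostly secreted plasma proteins. Apoa2 and Apoa1, the main proteins of high-density lipoprotein, had differences of 9.18 and 7.70, Alb 8.72, and Plg, which encodes plasminogen, 6.92. Serpina6, corticosteroid-binding globulin, had 603 FPKM in liver and 6.39 FPKM in dorsal pancreas. Reln was the highest locus that was neither in a list of hepatic genes nor joined with a neighbour: this secreted glycoprotein, best known for placing neurons in the cortex, had 261 FPKM in liver and 1.47 FPKM in dorsal pancreas, with 103 FPKM in ventral pancreas. Tnnt2, Acta2 and Myl4, genes of heart and smooth muscle, were also among the 15 highest and are described with the other cell types. The largest difference of all, 11.64, was at a locus with the joined names 2410017I17Rik, H2-Bl and H2-T10 on chromosome 17, which had 4797 FPKM in liver, 0.508 FPKM in dorsal pancreas and 2.37 FPKM in ventral pancreas, and which of the 3 genes gave the reads cannot be told. Its interval is shared with loci of H2-T22, H2-T9, H2-T23 and H2-T3, and reads of these genes can be part of its value. The fifth was another joined locus, of Cyp2c40, Cyp2c68 and Cyp2c69, with 137 FPKM in liver and 0.0200 FPKM in dorsal pancreas.

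The furthest loci on the dorsal pancreas side were hormones, granule proteins, ion channels and transcription factors, with a few genes of other kinds. Gcg had the largest negative difference, -10.39, and Pyy, the gut and islet hormone peptide YY, stood at 1.93 FPKM in liver and 722 FPKM in dorsal pancreas. Slc38a5, which carries glutamine and other neutral amino acids into cells, had 0.655 FPKM in liver and 886 FPKM in dorsal pancreas, a difference of -9.07. Nepn, a small leucine-rich proteoglycan known from foregut and midgut endoderm, had 0.512 FPKM in liver and 602 FPKM in dorsal pancreas. Spp1, the secreted phosphoprotein osteopontin, had 0.0101 FPKM in liver and 68.2 FPKM in dorsal pancreas. Aldoart2, an aldolase retrogene at 169 FPKM in liver and 2278 FPKM in dorsal pancreas, was the most abundant counted locus of the dorsal pancreas library, but the locus is under 1000 bases long and resembles its parent gene, so its value is uncertain.

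**Figure D2:**
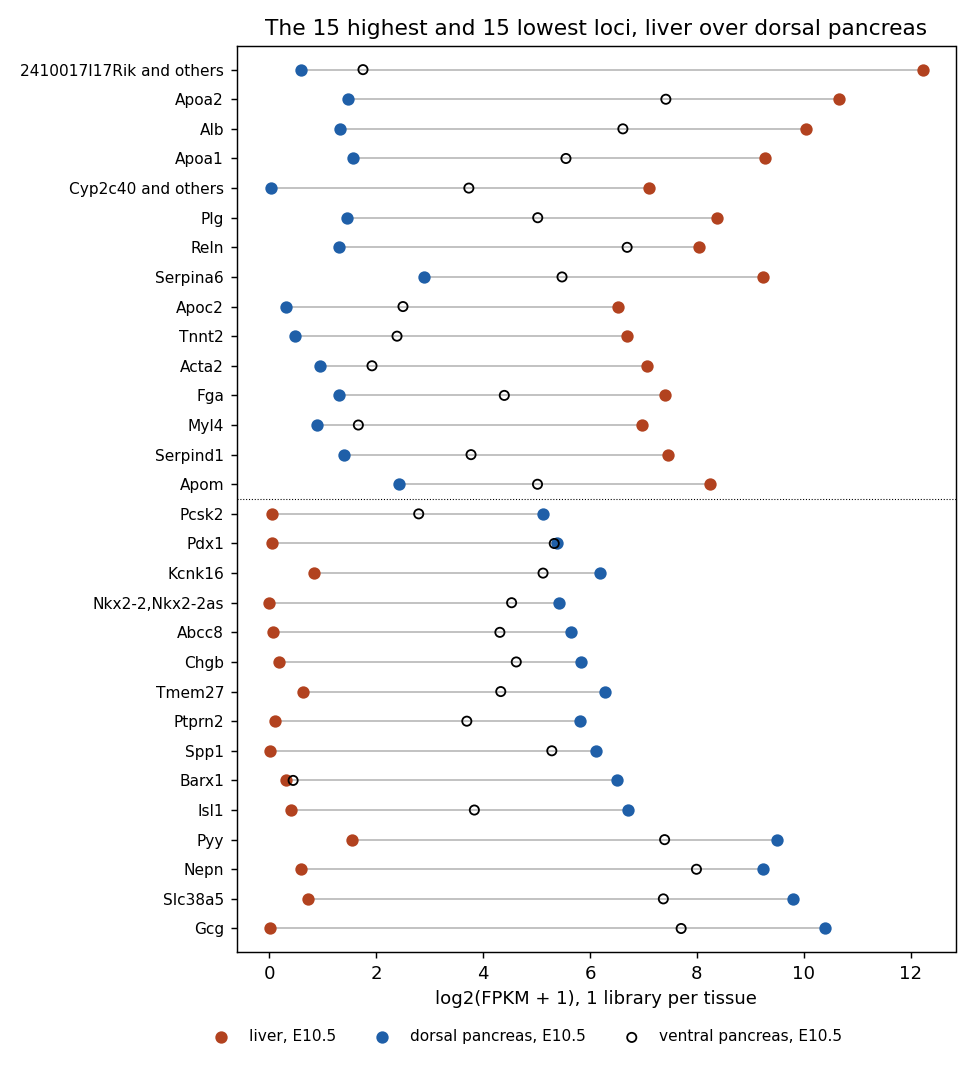
The 15 loci highest and the 15 lowest in liver over dorsal pancreas, ordered from the highest at the top, with log2(FPKM + 1) on the horizontal axis and 1 point per library. Filled points are liver and dorsal pancreas, open points are ventral pancreas, and the ventral point lies between the other two for most loci, with Pdx1 close to dorsal pancreas and Barx1 close to liver.

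Plasma proteins were the largest hepatic group on the liver side. Over 4 lists of carriers, apolipoproteins, coagulation factors and complement, 49 members were measured, of which 37 were higher in liver and 1 was lower, with a median difference of 4.22 against -0.15 for all measured loci. Together they held 2.21% of the summed FPKM in liver and 0.142% in dorsal pancreas. Of 11 measured carriers, 9 were higher: Trf, the iron carrier transferrin, reached 1244 FPKM in liver against 27.2 FPKM in dorsal pancreas, and Hpx, the heme carrier hemopexin, 79.5 FPKM in liver against 0.482 FPKM in dorsal pancreas. Sepp1, which carries selenium, had 339.7 FPKM in liver and 22.5 FPKM in dorsal pancreas, and Ambp, the precursor of a urinary and a protease-inhibiting protein, had 898 FPKM in liver and 188 FPKM in dorsal pancreas. Ambp thus also stood high in dorsal pancreas. Ttr, the thyroid hormone carrier, was not counted at 16.7 FPKM in liver and 5.67 FPKM in dorsal pancreas, and its locus is on the strand opposite to the annotated gene.

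Of 10 measured genes of lipoproteins and their assembly, 8 were higher in liver and none was lower, with a median of 4.93. Apoa2 had 1618 FPKM in liver and 1.79 FPKM in dorsal pancreas, and its locus interval overlaps Tomm40l. Apoa1 had 618 FPKM in liver and 1.97 FPKM in dorsal pancreas. Apoc2, the cofactor of lipoprotein lipase, had 90.9 FPKM in liver and 0.235 FPKM in dorsal pancreas. These 3 were each below 2 FPKM in dorsal pancreas. Apob, the structural protein of very-low-density lipoprotein, had 46.5 FPKM in liver and 0.117 FPKM in dorsal pancreas, and Mttp, which loads lipid onto it, had 107 FPKM in liver and 3.90 FPKM in dorsal pancreas. Apom, which carries sphingosine-1-phosphate, had 304 FPKM in liver and 4.40 FPKM in dorsal pancreas. Cideb and Pltp were the 2 measured members that were not counted.

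Of 22 measured genes of coagulation, fibrinolysis and kinins, 16 were higher in liver and none was lower, with a median of 3.89. The 3 fibrinogen chains were all high: Fga had 169 FPKM in liver and 1.47 FPKM in dorsal pancreas, Fgb had 661 FPKM in liver and 13.3 FPKM in dorsal pancreas, and Fgg had 234 FPKM in liver and 4.38 FPKM in dorsal pancreas. F2, which encodes prothrombin, had 148 FPKM in liver and 2.28 FPKM in dorsal pancreas, and Serpinf2, which encodes alpha2-antiplasmin, had 958 FPKM in liver and 38.9 FPKM in dorsal pancreas. Inhibitors of clotting were high in liver as well: Serpind1, heparin cofactor II, had 175 FPKM in liver and 1.64 FPKM in dorsal pancreas, and Serpinc1, antithrombin, had 31.7 FPKM in liver and 0.626 FPKM in dorsal pancreas, each in an interval that overlaps another locus. Vtn, the adhesive plasma protein vitronectin, was not counted, with 351 FPKM in liver and 108 FPKM in dorsal pancreas. Of 6 measured complement genes 4 were higher: C3, the central component, had 75.1 FPKM in liver and 0.533 FPKM in dorsal pancreas, C1s had 33.5 FPKM in liver and 0.870 FPKM in dorsal pancreas, C8a had 13.8 FPKM in liver and 0.0279 FPKM in dorsal pancreas, and Hc, which encodes C5, had 5.02 FPKM in liver and 0.0710 FPKM in dorsal pancreas. Of these 4 complement calls, 2 remained with the larger pseudocount and 2 with the higher minimum. Hc had 11.03 FPKM in ventral pancreas, above its level in liver.

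The 1 plasma gene lower in liver belongs to the albumin family. Afm and Gc encode afamin and the vitamin D-binding protein, and both lie on chromosome 5 with Alb. Afm had 58.1 FPKM in liver and 1.51 FPKM in dorsal pancreas, a difference of 4.56. Gc had 6.20 FPKM in liver and 38.3 FPKM in dorsal pancreas, a difference of -2.45, with 41.8 FPKM in ventral pancreas, and it was no longer counted with the larger pseudocount. In the E8.5 libraries Gc stood at 0.512 FPKM in foregut and 0.278 FPKM in medial foregut, and Alb and Afm were each below 0.3 FPKM. Alb, Afm and Gc were therefore low at E8.5. At E10.5 Alb and Afm were higher in liver than in dorsal pancreas, and Gc was lower. Ventral pancreas held all of them, with 97.0 FPKM of Alb and 22.1 FPKM of Afm beside the Gc level above.

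The stretches below are from bases 150 to 41 before the RefSeq start of each gene (GRCm38.p6, 5′ to 3′ on the gene's strand). Those of the albumin family are shown because its members differed in opposite directions, and the next 3 because their genes carry the same letters and also differed in opposite directions. Capitals mark letters that match a motif, which is TTGCNNAA, the core bound by C/EBP factors, in Alb and TTAATNATT, the core bound by HNF1 factors, in the other 5, where N is any base. The match may be on the opposite strand, and overlapping matches run together. The bases nearer the start are not shown, and in Alb they hold ttaatgatc, which differs from TTAATNATT in the last letter only.
Alb: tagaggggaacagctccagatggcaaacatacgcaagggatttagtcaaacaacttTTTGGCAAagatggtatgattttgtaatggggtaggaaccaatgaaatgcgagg
Afm: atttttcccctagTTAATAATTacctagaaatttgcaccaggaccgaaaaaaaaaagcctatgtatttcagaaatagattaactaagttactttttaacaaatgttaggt
Gc: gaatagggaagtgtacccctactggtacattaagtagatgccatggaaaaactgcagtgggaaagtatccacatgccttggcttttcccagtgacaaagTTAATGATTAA
Gjb1: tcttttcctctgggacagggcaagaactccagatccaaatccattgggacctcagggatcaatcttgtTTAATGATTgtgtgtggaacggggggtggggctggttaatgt
Tmem27: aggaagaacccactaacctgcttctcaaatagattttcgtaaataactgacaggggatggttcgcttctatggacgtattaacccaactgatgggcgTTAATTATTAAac
Rfx6: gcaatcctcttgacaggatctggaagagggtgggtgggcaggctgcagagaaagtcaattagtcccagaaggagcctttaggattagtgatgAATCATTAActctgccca
Their positions are chr5:90460720-90460829, chr5:90518799-90518908 and chr5:89457939-89458048 (minus strand), chrX:101377085-101377194 and chrX:164090037-164090146, and chr10:51685368-51685477, in the same order and on the plus strand unless stated. Gjb1, which encodes the gap junction protein connexin 32, had 44.4 FPKM in liver and 7.34 FPKM in dorsal pancreas. Tmem27, which encodes the membrane protein collectrin, had 0.538 FPKM in liver and 76.2 FPKM in dorsal pancreas, and Rfx6, a factor of endocrine cells, had 0.0452 FPKM in liver and 15.6 FPKM in dorsal pancreas. Among the genes shown, the same letters thus stand before 2 genes higher in liver, Afm and Gjb1, and 3 lower in liver, Gc, Tmem27 and Rfx6. This is not the balance over all counted loci, where 10 windows of loci higher in liver and 3 of those lower held them. The windows were chosen after the values were seen.

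Motifs were searched on both strands from 250 bases before to 50 after the start, and a gene with several starts had several windows. RefSeq windows were found for 199 of 251 single-name loci higher in liver and for 304 of 392 lower in liver. TTAATNATT was in 10 of 256 windows of the loci higher in liver (3.91%) and in 3 of 421 windows of the loci lower in liver (0.713%), beside 0.765% of the windows of measured loci and 1.47% of all RefSeq windows. CAAAGTCCA, a core bound by HNF4, was in 7 windows of the loci higher in liver (2.73%) and in none of the loci lower in liver, beside 0.331% for measured loci and 0.475% for all windows. The genes were Aadat, Csrp3, Cyp2c70, Pipox, Sec16b and Tmcc3, and among them Csrp3 is a muscle gene. GTTGCCATG, a repeat of the site bound by RFX factors, was in 1 window of the loci higher in liver (0.391%) and 8 of those lower (1.90%), beside 0.662% for measured loci and 0.773% for all windows. It lies before Celf3, an RNA-binding protein of neurons and endocrine cells that had 0.356 FPKM in liver and 26.3 FPKM in dorsal pancreas, whose locus overlaps Snx27, and its stretch (chr3:94484177-94484286, plus strand) is shown with that motif in capitals.
Celf3: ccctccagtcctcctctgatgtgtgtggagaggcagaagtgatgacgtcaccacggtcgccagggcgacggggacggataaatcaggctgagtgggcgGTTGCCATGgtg
TGTTTAC (the core bound by FOXA), TTGCNNAA, CTAATTA (homeodomain) and CAGATGG (E-box) were in 3.52%, 10.9%, 0.781% and 5.08% of the windows of the loci higher in liver, against 2.61%, 7.601%, 1.43% and 4.28% of the windows of the loci lower in liver. For measured loci these 4 shares were 2.51%, 7.67%, 0.936% and 3.07%, and for all windows they were 3.65%, 10.8%, 2.00% and 5.30%. A window belongs to the gene and not to a tissue, overlaps between motifs were allowed, and a match is letters and not a bound site.

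Transcription factors of the liver had a lower median than the plasma proteins. Of 19 measured, 7 were higher in liver and none was lower, with a median of 1.44. Hnf4a had a difference of 3.51. Cebpa, a factor of hepatocyte maturation, had 47.3 FPKM in liver and 2.82 FPKM in dorsal pancreas, and Creb3l3, a membrane-bound factor that acts on lipid genes, had 20.3 FPKM in liver and 0.244 FPKM in dorsal pancreas. Tbx3, which hepatoblasts need to expand, had 31.5 FPKM in liver and 3.01 FPKM in dorsal pancreas. Hhex, which is needed for the liver bud to form, had 71.2 FPKM in liver and 10.6 FPKM in dorsal pancreas, but its highest level was 133 FPKM in ventral pancreas. Lhx2, a factor of the liver's mesenchyme, had 7.75 FPKM in liver and 0.284 FPKM in dorsal pancreas, and ventral pancreas stood at 8.65 FPKM.

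Factors shared by both organs mostly stayed within the size rule. The forkhead genes that open foregut chromatin were not counted: Foxa1 had 28.2 FPKM in liver and 6.40 FPKM in dorsal pancreas and Foxa3 24.2 FPKM in liver and 5.49 FPKM in dorsal pancreas, both just short of the rule, while Foxa2 had 24.0 FPKM in liver and 33.1 FPKM in dorsal pancreas. Onecut1, which acts in both the biliary and the pancreatic lineage, had 11.9 FPKM in liver and 18.3 FPKM in dorsal pancreas, and its highest level was 78.0 FPKM in ventral pancreas. Gata4 and Gata6, which both organs need, had 19.7 FPKM in liver and 13.5 FPKM in dorsal pancreas and 27.0 FPKM in liver and 11.2 FPKM in dorsal pancreas. Prox1, a factor of both buds, had 30.3 FPKM in liver and 11.48 FPKM in dorsal pancreas at a locus on the strand opposite to the annotated gene. Sox17, which marks the biliary and ventral foregut domain, was at 1.10 FPKM in liver and 0.821 FPKM in dorsal pancreas, while ventral pancreas had 65.9 FPKM.

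Enzymes of amino acid breakdown, of one-carbon metabolism and of the urea cycle were the metabolic group with the highest median, 2.14, with 14 of 28 measured members higher in liver and 2 lower. Aass, the entry enzyme of lysine breakdown, had 71.7 FPKM in liver and 1.65 FPKM in dorsal pancreas. Ftcd, which passes histidine carbon to folate, had 33.3 FPKM in liver and 0.494 FPKM in dorsal pancreas, and Fah, the last enzyme of tyrosine breakdown, had 41.3 FPKM in liver and 2.56 FPKM in dorsal pancreas. Cth and Cbs, the enzymes of transsulfuration, had 64.8 FPKM in liver and 8.32 FPKM in dorsal pancreas and 18.2 FPKM in liver and 1.69 FPKM in dorsal pancreas. In the urea cycle Ass1 had 33.9 FPKM in liver and 3.14 FPKM in dorsal pancreas, Asl had 60.6 FPKM in liver and 14.2 FPKM in dorsal pancreas, and Nags, which makes the activator of its first step, had 6.40 FPKM in liver and 0.343 FPKM in dorsal pancreas. Arg1, the arginase that closes the cycle, went the other way with 8.53 FPKM in liver and 90.4 FPKM in dorsal pancreas, and its interval overlaps Med23. Arg1 stood at 34.9 FPKM in foregut and 30.4 FPKM in medial foregut at E8.5, so its liver level was the lowest of the 5 libraries. Kynu, a kynureninase of tryptophan breakdown, was the other member lower in liver, with 0.128 FPKM in liver and 9.22 FPKM in dorsal pancreas. With the larger pseudocount 6 of the 14 higher and 1 of the 2 lower calls remained, and with the higher minimum 8 and 1.

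Of 33 measured glucose and fructose genes 4 were higher in liver and 1 was lower. With the larger pseudocount none of the 4 remained and with the higher minimum 1 did. The 1 lower call remained with the larger pseudocount and ended with the higher minimum. Gys2, the liver form of glycogen synthase, had 16.7 FPKM in liver and 0.879 FPKM in dorsal pancreas, while Gys1, the form of muscle and other tissues, had 13.5 FPKM in liver and 15.4 FPKM in dorsal pancreas. Pklr, pyruvate kinase of liver and red cells, had 19.5 FPKM in liver and 1.39 FPKM in dorsal pancreas. Gckr, a regulatory protein of hepatic glucose metabolism, had 14.8 FPKM in liver and 1.29 FPKM in dorsal pancreas. Slc2a2, the glucose carrier GLUT2, missed the size rule narrowly with 20.6 FPKM in liver and 4.41 FPKM in dorsal pancreas, and was highest in ventral pancreas at 39.3 FPKM.

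Lipid, sterol, drug and iron genes held fewer counted members. Of 28 measured fatty acid and ketone enzymes 5 were higher and none lower, with 3 left under each stricter setting: Slc27a2, which activates long fatty acids, had 28.4 FPKM in liver and 1.03 FPKM in dorsal pancreas, Dgat2, which completes triglycerides, had 83.4 FPKM in liver and 7.87 FPKM in dorsal pancreas, and Acsl1, another enzyme that activates long fatty acids, had 48.1 FPKM in liver and 5.18 FPKM in dorsal pancreas. Of 19 measured cholesterol genes 1 was counted as higher, and the list's median was 0.70. Stard4, a sterol carrier, was not counted at 41.05 FPKM in liver and 13.4 FPKM in dorsal pancreas. Of 20 measured bile acid, drug and steroid genes 2 were higher, Gstt1 with 56.0 FPKM in liver and 3.15 FPKM in dorsal pancreas and Gstm1 with 133 FPKM in liver and 11.1 FPKM in dorsal pancreas, both glutathione transferases. Another transferase, Gsta3, was not counted at 0.395 FPKM in liver and 4.97 FPKM in dorsal pancreas. Of 15 measured iron and heme genes 2 were higher, Tmprss6, a protease that restrains hepcidin, with 14.2 FPKM in liver and 1.05 FPKM in dorsal pancreas, and Hmox1, which degrades heme, with 37.8 FPKM in liver and 6.82 FPKM in dorsal pancreas. With the larger pseudocount neither iron and heme call remained, and with the higher minimum 1 did.

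**Figure D3:**
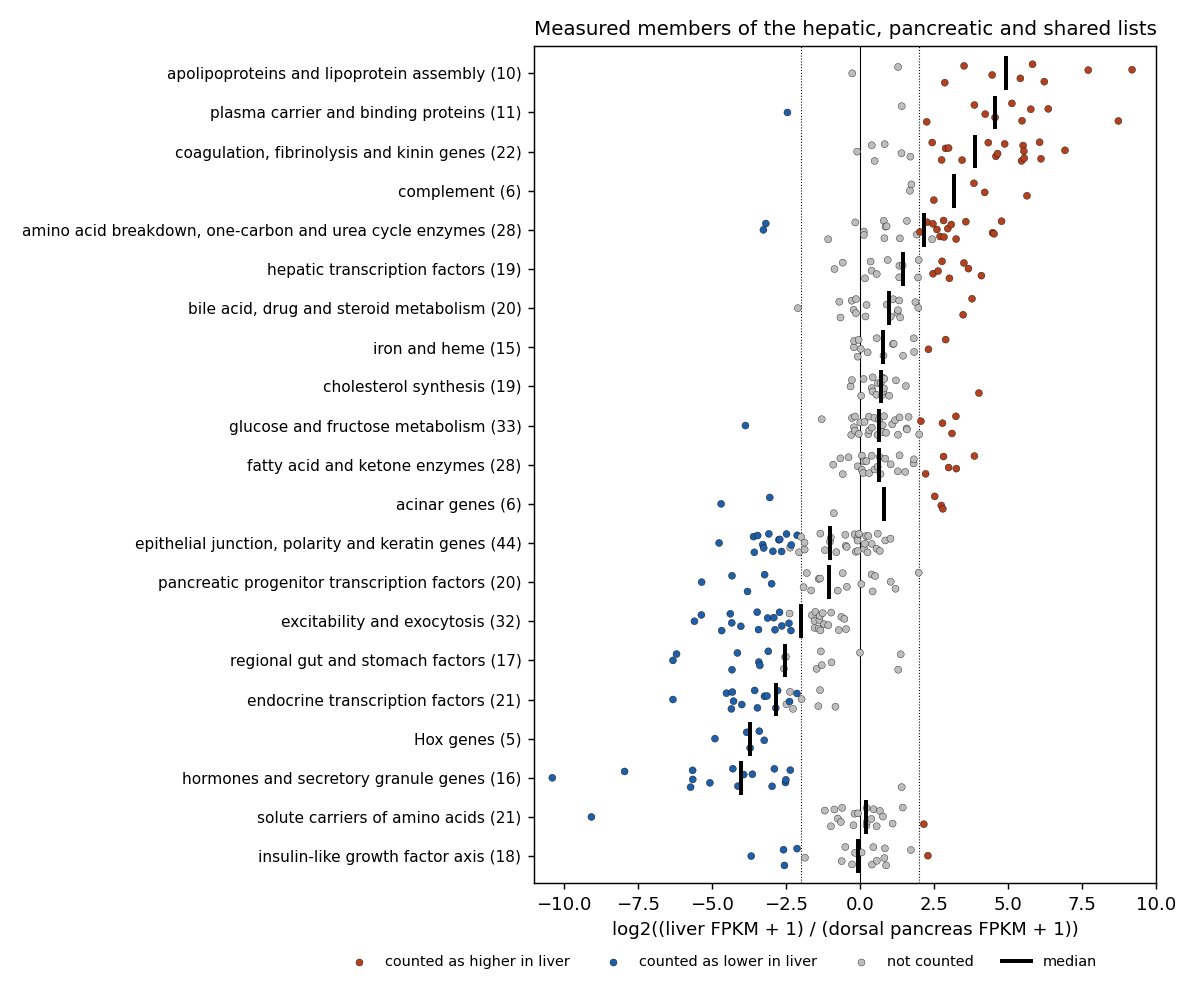
Each point is 1 measured member of a list, placed by its difference on the horizontal axis, with the number of measured members in brackets, the median as a bar and dotted lines at -2 and 2. Points of the plasma protein lists lie mainly to the right, those of hormones and granules to the left, and single points on the far side of a list include Gc, and Arg1 with Kynu.

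On the pancreatic side, hormone and secretory granule genes were the list with the lowest median. Of 16 measured members 15 were lower in liver and none was higher, with a median of -4.02. Among hormones, Ins1, an insulin gene, was listed at 0 in liver with 16.4 FPKM in dorsal pancreas, and Gal, galanin, had 0.391 FPKM in liver and 9.32 FPKM in dorsal pancreas. Of the enzymes that cut and finish prohormones, Pcsk2 had 0.0317 FPKM in liver and 33.6 FPKM in dorsal pancreas, Cpe had 6.54 FPKM in liver and 92.5 FPKM in dorsal pancreas, and Pam had 9.47 FPKM in liver and 58.9 FPKM in dorsal pancreas. Granule proteins stood likewise, with Chgb at 0.137 FPKM in liver and 56.0 FPKM in dorsal pancreas, Scg3 at 0.0862 FPKM in liver and 20.3 FPKM in dorsal pancreas, and the receptor-like phosphatases Ptprn2 at 0.0701 FPKM in liver and 55.3 FPKM in dorsal pancreas and Ptprn at 0.126 FPKM in liver and 16.1 FPKM in dorsal pancreas. The member that was not counted was Ttr, a carrier that is also made in alpha cells. Ventral pancreas had 208 FPKM of Gcg, 167 FPKM of Pyy and 1.62 FPKM of Ins1, each between the liver and the dorsal pancreas level.

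Genes of excitability and exocytosis had 15 of 32 measured members lower in liver and none higher, with a median of -1.98. The 2 parts of the ATP-sensitive potassium channel, the receptor subunit Abcc8 and the pore Kcnj11, had 0.0445 FPKM in liver and 49.3 FPKM in dorsal pancreas and 0.129 FPKM in liver and 27.7 FPKM in dorsal pancreas. Kcnk16, a potassium channel of islet cells, had 0.788 FPKM in liver and 72.1 FPKM in dorsal pancreas. Chrna4, a subunit of nicotinic receptors, had 0.428 FPKM in liver and 22.2 FPKM in dorsal pancreas, and Cacna2d1, an auxiliary subunit of calcium channels, had 1.70 FPKM in liver and 18.8 FPKM in dorsal pancreas. Of the release machinery, Syt13 had 0.211 FPKM in liver and 24.2 FPKM in dorsal pancreas, Cadps, which primes dense-core vesicles, had 0.0278 FPKM in liver and 10.05 FPKM in dorsal pancreas, and Syp, a vesicle membrane protein, had 0.542 FPKM in liver and 9.14 FPKM in dorsal pancreas. Each of these was below 2 FPKM in liver. Of the 15 calls 6 remained with the larger pseudocount and 8 with the higher minimum.

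Endocrine transcription factors had 14 of 21 measured members lower in liver and none higher, with a median of -2.84. Isl1, which islet cells and the dorsal bud's mesenchyme both use, had 0.318 FPKM in liver and 104 FPKM in dorsal pancreas, and ventral pancreas had 13.3 FPKM. Neurog3, which starts the endocrine programme, had 0.00408 FPKM in liver and 7.86 FPKM in dorsal pancreas. Neurod1 was listed at 0 in liver, with 19.3 FPKM in dorsal pancreas, and Insm1, which acts with it, had 0.0329 FPKM in liver and 18.9 FPKM in dorsal pancreas. Pax6 had 1.46 FPKM in liver and 26.2 FPKM in dorsal pancreas at a locus that overlaps Elp4. Irx1 and Irx2, found in alpha cells, had 0.0806 FPKM in liver and 23.6 FPKM in dorsal pancreas and 0.0646 FPKM in liver and 20.1 FPKM in dorsal pancreas. Of the 14 calls 8 remained with the larger pseudocount and 6 with the higher minimum. Pax4 and St18 were listed at 0 in liver, with 3.80 and 4.602 FPKM in dorsal pancreas, under the level rule. A joined locus of Nkx2-2 and its antisense gene was listed at 0 in liver with 42.0 FPKM in dorsal pancreas.

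Progenitor factors were more divided. Of 20 measured, 5 were lower in liver and none was higher, with a median of -1.05. They were Pdx1 and Ptf1a, given above, Mnx1, which the dorsal bud needs to form, with 0.00610 FPKM in liver and 19.1 FPKM in dorsal pancreas, Nkx6-1, which beta cells need, with 0.0138 FPKM in liver and 13.1 FPKM in dorsal pancreas, and Sox9, which maintains progenitors, with 2.32 FPKM in liver and 25.3 FPKM in dorsal pancreas. Sox9 overlaps another locus, BC006965. Of the 5 calls 3 remained with the larger pseudocount and 2 with the higher minimum. Meis1, which binds DNA together with Hox proteins, had 18.8 FPKM in liver and 73.1 FPKM in dorsal pancreas and was not counted.

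Only 6 acinar genes were measured, and they did not move together. Cpa1, which encodes a digestive carboxypeptidase and marks early progenitors, had 0.229 FPKM in liver and 30.7 FPKM in dorsal pancreas. Pnliprp1 and Pnliprp2, relatives of pancreatic lipase, had 33.8 FPKM in liver and 5.06 FPKM in dorsal pancreas and 8.82 FPKM in liver and 0.415 FPKM in dorsal pancreas, so both were higher in liver. Spink3, a trypsin inhibitor, was also higher in liver with 12.3 FPKM in liver and 0.982 FPKM in dorsal pancreas, and had 68.8 FPKM in foregut and 137 FPKM in medial foregut at E8.5. With the larger pseudocount none of the 3 higher calls remained, and with the higher minimum 1 did. The sign of the list's median changed when the mean asked of measured loci was raised to 5 FPKM.

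**Figure D4:**
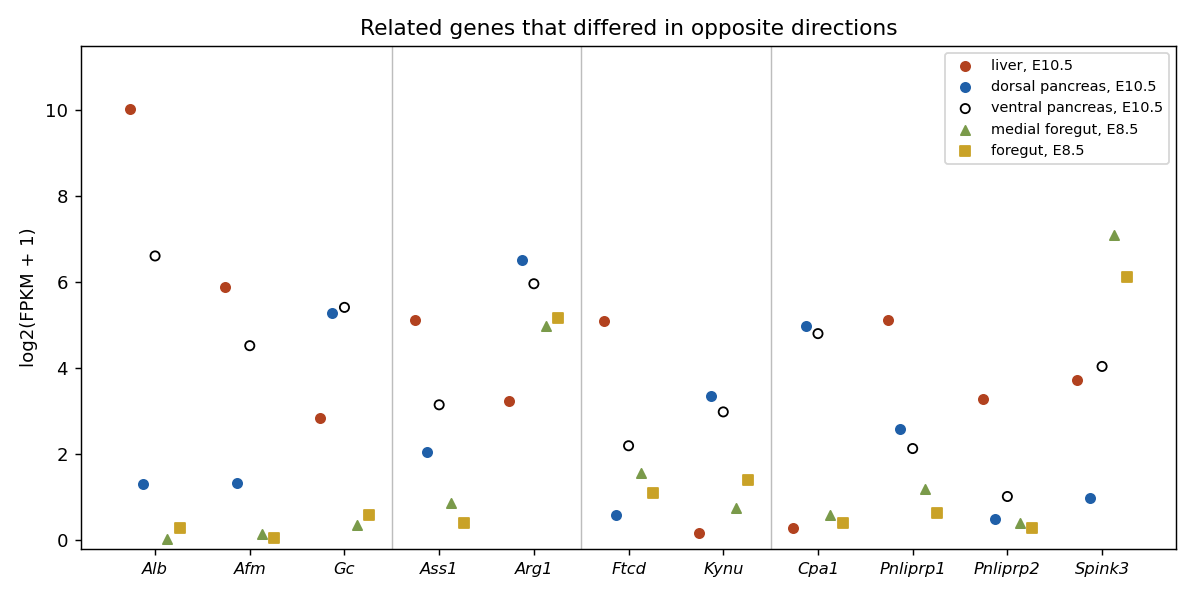
The vertical axis gives log2(FPKM + 1) in each of the 5 libraries, side by side for each gene, with lines between the albumin family, the urea cycle pair, 2 amino acid enzymes, and 4 acinar genes. Gc, Arg1 and Kynu are lower in liver than in dorsal pancreas beside related genes that are higher, and the 3 right-hand acinar genes are higher in liver.

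Genes of the mesenchyme and the position along the gut also separated the libraries. Among regional factors of gut and stomach, 7 of 17 measured were lower in liver and none was higher, with a median of -2.53. Barx1, the factor of stomach mesenchyme, had 0.234 FPKM in liver and 89.3 FPKM in dorsal pancreas and only 0.360 FPKM in ventral pancreas. Nkx3-2 and Nkx2-3, factors of stomach, spleen and gut mesenchyme, had 0.0145 FPKM in liver and 9.57 FPKM in dorsal pancreas and 0.0139 FPKM in liver and 7.67 FPKM in dorsal pancreas. Each of these 3 was below 1 FPKM in both liver and ventral pancreas. All 5 Hox genes that had a locus of their own and were measured were lower in liver: Hoxb8 had 0.0701 FPKM in liver and 30.9 FPKM in dorsal pancreas, Hoxb1 had 0.213 FPKM in liver and 14.9 FPKM in dorsal pancreas, and Hoxc4 had 0.651 FPKM in liver and 16.4 FPKM in dorsal pancreas. The loci of Hoxa7 and Hoxb3 were partial or on the other strand. Of the 7 regional calls 5 remained with the larger pseudocount and 3 with the higher minimum, and of the 5 Hox calls 2 remained under each. In the broader gut mesenchyme list 5 of 20 measured were lower and none was higher, among them Foxf1a, at 0.859 FPKM in liver and 18.8 FPKM in dorsal pancreas on the other strand, and Pdgfra, at 6.68 FPKM in liver and 35.0 FPKM in dorsal pancreas, and 2 of these calls remained under each stricter setting. Tbx5, a factor of heart and forelimb fields, went the other way at 4.87 FPKM in liver and 0.0657 FPKM in dorsal pancreas and missed the level rule.

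The counted epithelial genes were all lower in liver. Of 44 measured genes of junctions, polarity and keratins, 14 were lower and none was higher, with a median of -1.002, and 9 calls remained with the larger pseudocount. Epcam, the epithelial adhesion molecule, had 28.4 FPKM in liver and 163 FPKM in dorsal pancreas, and Cdh1, E-cadherin, had 14.0 FPKM in liver and 64.3 FPKM in dorsal pancreas. The claudins of tight junctions followed, with Cldn6 at 29.96 FPKM in liver and 154 FPKM in dorsal pancreas and Cldn7 at 0.354 FPKM in liver and 12.2 FPKM in dorsal pancreas, and Cldn3 at 0.401 FPKM in liver and 36.9 FPKM in dorsal pancreas and Cldn4 at 3.57 FPKM in liver and 54.3 FPKM in dorsal pancreas shared 1 interval. Esrp1 and Grhl2, which hold epithelial splicing and transcription, had 1.77 FPKM in liver and 25.4 FPKM in dorsal pancreas and 0.0907 FPKM in liver and 6.29 FPKM in dorsal pancreas. Krt8, a keratin of simple epithelia, was close to level with 121 FPKM in liver and 137 FPKM in dorsal pancreas. Ventral pancreas stood above both libraries for some of these genes, with 343 FPKM of Epcam and 56.6 FPKM of Esrp1, and between them for others, with 29.4 FPKM of Cldn3 and 44.6 FPKM of Cldn4.

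Among signalling pathways, the counted genes of Hedgehog and FGF signalling were all lower in liver. Of 14 measured Hedgehog genes 4 were lower and none was higher: Gli1 had 0.996 FPKM in liver and 13.9 FPKM in dorsal pancreas, Gli2 had 1.09 FPKM in liver and 15.4 FPKM in dorsal pancreas and Gli3 had 1.49 FPKM in liver and 12.5 FPKM in dorsal pancreas, which are the factors of the pathway, and Disp2 had 0.0493 FPKM in liver and 10.9 FPKM in dorsal pancreas. None of these 4 calls remained with the larger pseudocount or with the higher minimum. The ligands were low in both libraries, with Shh at 0.00678 FPKM in liver and 0.417 FPKM in dorsal pancreas and Ihh at 4.72 FPKM in liver and 1.10 FPKM in dorsal pancreas. Of 18 measured FGF genes 4 were lower and none was higher. The ligand Fgf9 had 0.238 FPKM in liver and 17.6 FPKM in dorsal pancreas, and Fgf10, which drives pancreatic progenitor growth from the mesenchyme, had 0.573 FPKM in liver and 15.5 FPKM in dorsal pancreas at a short, partial locus. Etv4, a target of the pathway, had 8.83 FPKM in liver and 69.0 FPKM in dorsal pancreas, and Il17rd, an inhibitor, had 1.48 FPKM in liver and 29.0 FPKM in dorsal pancreas. Of the 4 FGF calls 2 remained with the higher minimum.

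Notch and Wnt genes each had 1 member that stood out on the liver side. Of 19 measured Notch genes 3 were lower in liver, with the ligands Dll1 at 2.57 FPKM in liver and 17.8 FPKM in dorsal pancreas and Dll3 at 0.0452 FPKM in liver and 9.77 FPKM in dorsal pancreas and the receptor Notch3 at 5.47 FPKM in liver and 33.4 FPKM in dorsal pancreas. With the larger pseudocount none of these 3 calls remained, and with the higher minimum 1 did. Dlk1, an imprinted transmembrane protein related to the ligands and a mark of hepatoblasts, was higher with 2377 FPKM in liver and 485 FPKM in dorsal pancreas, and had 1718 FPKM in ventral pancreas. Of 31 measured Wnt genes 6 were lower, of which none remained with the larger pseudocount and 3 with the higher minimum. Among ligands Wnt7b had 0.0196 FPKM in liver and 6.32 FPKM in dorsal pancreas and Wnt5b 1.83 FPKM in liver and 13.8 FPKM in dorsal pancreas, and among receptors Fzd5 had 4.52 FPKM in liver and 30.2 FPKM in dorsal pancreas, Fzd2 3.04 FPKM in liver and 18.9 FPKM in dorsal pancreas and Ror2, a receptor of the non-canonical branch, 4.06 FPKM in liver and 23.5 FPKM in dorsal pancreas. Lgr5, a receptor for R-spondins, was the 1 member higher in liver with 22.9 FPKM in liver and 0.331 FPKM in dorsal pancreas. Sfrp5, a secreted antagonist, was lower in liver with 4.28 FPKM in liver and 21.7 FPKM in dorsal pancreas, and ventral pancreas had 41.7 FPKM.

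Components of planar polarity, which orients cells in a sheet, had 6 of 24 measured members lower in liver and none higher. Rhov, a small GTPase, had 0.169 FPKM in liver and 20.2 FPKM in dorsal pancreas, and the cadherins Celsr1 and Celsr2 had 0.749 FPKM in liver and 7.03 FPKM in dorsal pancreas and 1.46 FPKM in liver and 9.77 FPKM in dorsal pancreas. Of the 6 polarity calls 1 remained with the larger pseudocount and 2 with the higher minimum. Axon guidance genes had 10 of 51 measured lower and none higher, with a median of -0.99. The secreted ligands Slit2 and Sema3f had 1.10 FPKM in liver and 17.6 FPKM in dorsal pancreas and 5.25 FPKM in liver and 43.6 FPKM in dorsal pancreas, and the receptor Ephb3 had 3.09 FPKM in liver and 21.01 FPKM in dorsal pancreas. Of the 10 guidance calls 1 remained with the larger pseudocount and 3 with the higher minimum. Of 16 measured retinoic acid genes 3 were lower, namely Stra6, the receptor that takes up retinol, with 0.859 FPKM in liver and 22.7 FPKM in dorsal pancreas, the nuclear receptor Rxrg with 0.526 FPKM in liver and 9.88 FPKM in dorsal pancreas, and the binding protein Crabp1 with 2.18 FPKM in liver and 19.3 FPKM in dorsal pancreas, and 1 of these calls remained under each stricter setting. Of 38 measured BMP, TGF-beta and activin genes 2 were higher, Fst, the activin antagonist follistatin, with 13.7 FPKM in liver and 1.46 FPKM in dorsal pancreas, and Gdf15, a stress-responsive ligand, with 9.43 FPKM in liver and 0.479 FPKM in dorsal pancreas, and neither remained counted under either stricter setting. Bmp4, a signal to the liver bud, was not counted at 7.08 FPKM in liver and 3.57 FPKM in dorsal pancreas. The median of the BMP list changed sign after rescaling by the median of ratios. That of the retinoic acid list changed sign after rescaling to an equal total, which also loosened the rules. It also changed sign without the minimum mean for measured loci, and with other-strand and partial loci left out.

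The insulin-like growth factor axis was split. Igf2, the imprinted fetal growth factor, had 1154 FPKM in liver and 652 FPKM in dorsal pancreas, and H19, its imprinted neighbour, had 3808 FPKM in liver and 2068 FPKM in dorsal pancreas, and neither was counted. Igf1 was lower in liver with 4.67 FPKM in liver and 33.0 FPKM in dorsal pancreas, and ventral pancreas had 1.13 FPKM. Igfbp2 and Igfbp3, carriers of these factors, were lower with 10.3 FPKM in liver and 65.3 FPKM in dorsal pancreas and 4.42 FPKM in liver and 22.7 FPKM in dorsal pancreas. Irs4, an adaptor of the receptors, had 0.0191 FPKM in liver and 11.99 FPKM in dorsal pancreas. In all, 1 of 18 measured members was higher, which was Dlk1, and 4 were lower, of which 1 remained with the larger pseudocount, and the sign of the median changed with the scaling. Of 21 measured amino acid carriers, Slc7a8 was higher with 9.43 FPKM in liver and 1.34 FPKM in dorsal pancreas, a call that ended under both stricter settings, and Slc38a5 was lower.

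Matrix genes had 2 of 46 measured members higher and 10 lower, of which 1 and 4 remained with the larger pseudocount. Beside Nepn and Spp1, Tnc, the mesenchymal glycoprotein tenascin C, had 2.25 FPKM in liver and 79.7 FPKM in dorsal pancreas and 1.73 FPKM in ventral pancreas, and Col2a1, the collagen of cartilage and notochord sheath, had 2.01 FPKM in liver and 73.7 FPKM in dorsal pancreas. Frem1, a basement membrane protein, had 0.941 FPKM in liver and 14.2 FPKM in dorsal pancreas, and Lama1, a laminin chain of early basement membranes, had 2.62 FPKM in liver and 20.8 FPKM in dorsal pancreas. Nid2, which links basement membrane networks, was higher in liver with 37.6 FPKM in liver and 4.59 FPKM in dorsal pancreas in an interval that overlaps another locus, and Col6a2 was higher with 37.9 FPKM in liver and 7.23 FPKM in dorsal pancreas.

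Cell cycle genes were near level. Of 44 measured, none was higher in liver and 1 was lower, Cdkn1a, the p53-responsive inhibitor p21, with 6.26 FPKM in liver and 30.7 FPKM in dorsal pancreas, which was not counted with the larger pseudocount. Ccne1, cyclin E1, had 111 FPKM in liver and 42.7 FPKM in dorsal pancreas, and Mcm6 of the replicative helicase had 102 FPKM in liver and 103 FPKM in dorsal pancreas. The median of the list was -0.01 and changed sign with the scaling. Of 20 measured hypoxia-responsive genes 2 were higher, Ndrg1 with 52.3 FPKM in liver and 9.44 FPKM in dorsal pancreas and the glycolytic regulator Pfkfb3 with 42.9 FPKM in liver and 9.58 FPKM in dorsal pancreas, and neither remained with the larger pseudocount.

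Markers of other cell types also differed between the libraries, and their part in the results above was not tested. Heart muscle markers summed to 549 FPKM over 20 loci in liver, 27.9 FPKM in dorsal pancreas and 36.8 FPKM in ventral pancreas, and 10 of 17 measured were higher in liver, with 5 left under each stricter setting. Tnnt2, cardiac troponin T, had 102 FPKM in liver and 0.388 FPKM in dorsal pancreas, and Actc1, cardiac actin, had 77.9 FPKM in liver and 0.752 FPKM in dorsal pancreas. Myh6, atrial myosin, had 7.05 FPKM in liver and 0.0391 FPKM in dorsal pancreas, and Myl4, an atrial myosin light chain at a partial locus, had 124 FPKM in liver and 0.852 FPKM in dorsal pancreas. The same list summed to 5888 FPKM in foregut and 10142 FPKM in medial foregut at E8.5. Smooth muscle markers summed to 173 FPKM over 10 loci in liver and 34.4 FPKM in dorsal pancreas. Acta2 gave most of the liver sum, with 133 FPKM in liver and 0.923 FPKM in dorsal pancreas in an interval that overlaps Stambpl1. Of 6 measured smooth muscle markers 2 were higher in liver and none was lower, with 1 call left under each stricter setting. Des and Smtn went the other way without being counted. Des had 6.86 FPKM in liver and 20.95 FPKM in dorsal pancreas, and Smtn had 7.56 FPKM in liver and 9.29 FPKM in dorsal pancreas. None of the heart and smooth muscle markers was listed at 0 in liver, and 1 of the heart muscle markers was listed at 0 in dorsal pancreas.

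Leukocyte and macrophage markers summed to 166 FPKM over 10 loci in liver and 35.8 FPKM in dorsal pancreas, and 7 of 9 measured were higher in liver, of which 1 remained under each stricter setting. The complement subunits C1qb and C1qc, made by macrophages, had 41.3 FPKM in liver and 2.65 FPKM in dorsal pancreas and 14.47 FPKM in liver and 0.595 FPKM in dorsal pancreas, Csf1r, the receptor of the macrophage growth factor, had 10.1 FPKM in liver and 0.861 FPKM in dorsal pancreas, and Mpo, of myeloid granules, had 6.501 FPKM in liver and 0.322 FPKM in dorsal pancreas. Erythroid markers were not counted in either direction: 9 loci summed to 47.6 FPKM in liver and 40.97 FPKM in dorsal pancreas, with Hbb-y, an embryonic globin, at 21.96 FPKM in liver and 24.4 FPKM in dorsal pancreas, and ventral pancreas had a sum of 157 FPKM. Endothelial markers summed to 237 FPKM over 22 loci in liver and 142 FPKM in dorsal pancreas, with none of 21 measured counted. The 4 platelet markers summed to 9.94 FPKM in liver and 3.92 FPKM in dorsal pancreas.

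Mesothelial and septum markers were divided. They summed to 77.6 FPKM over 13 loci in liver and 80.8 FPKM in dorsal pancreas, and 2 of 11 measured were higher in liver, namely Lhx2, given above, and Tbx18, a factor of epicardium and septum mesenchyme with 10.45 FPKM in liver and 0.108 FPKM in dorsal pancreas, and neither call remained under either stricter setting. Markers of neural crest, glia and neurons summed to 42.7 FPKM over 21 loci in liver and 126 FPKM in dorsal pancreas. Of 14 measured 4 were lower in liver and 1 was higher, and 2 of the 4 lower calls remained under each stricter setting. Nefl, a neurofilament, had 0.749 FPKM in liver and 32.8 FPKM in dorsal pancreas. Th, the first enzyme of catecholamine synthesis, had 0.0311 FPKM in liver and 10.97 FPKM in dorsal pancreas. Ednrb, the endothelin receptor, was higher in liver with 14.2 FPKM in liver and 1.10 FPKM in dorsal pancreas. The calls of Th and Ednrb ended under both stricter settings. Gut mesenchyme markers summed to 375 FPKM over 22 loci in liver and 608 FPKM in dorsal pancreas. Sums for neural tube were 6.15 FPKM in liver and 45.4 FPKM in dorsal pancreas, for nephric and gonad markers 4.86 FPKM in liver and 31.7 FPKM in dorsal pancreas, for somite 6.09 FPKM in liver and 17.2 FPKM in dorsal pancreas, and for notochord 193 FPKM in liver and 203 FPKM in dorsal pancreas. Pax6, described above with the endocrine factors, gave most of the neural tube sum in dorsal pancreas, with 26.2 FPKM. Krt8, described above with the epithelial genes, gave most of the notochord sum, with 121 FPKM in liver and 137 FPKM in dorsal pancreas. These sums therefore do not single out neural tube or notochord. Six2, a nephron progenitor factor that is also made in gut mesenchyme, gave most of the nephric sum in dorsal pancreas, with 0.251 FPKM in liver and 25.1 FPKM in dorsal pancreas at a partial locus. In the neural tube list 4 of 11 loci were listed at 0 in liver and 2 in dorsal pancreas.

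**Figure D5:**
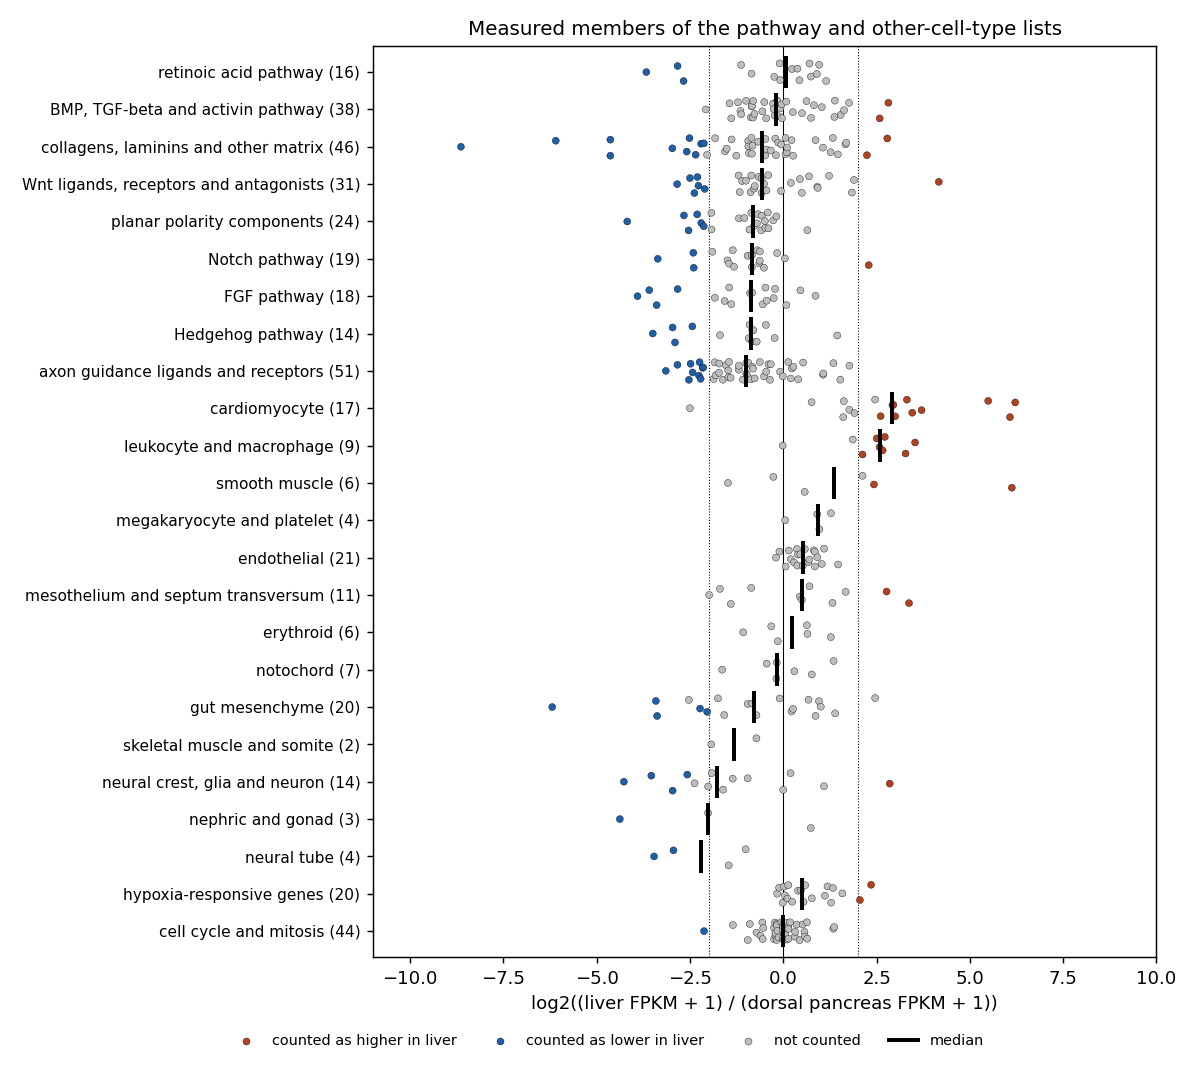
Each point is 1 measured member of a pathway or marker list, placed by its difference on the horizontal axis, with the number of measured members in brackets, the median as a bar and dotted lines at -2 and 2. Heart muscle and leukocyte markers lie mainly to the right, most pathway medians lie just left of 0, and the cell cycle list is centred near 0.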

How the data were processed

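The series table held 1 FPKM value per locus and library for 5 libraries of poly(A) RNA, sequenced with 2 x 100 cycles, per the labels' protocols. The authors made the deposited FPKM values with TopHat 1.33 and Cufflinks 1.3.0 on mm9, per the submitters' processing notes. The sources used here do not give the annotation, the read depth or any scaling between libraries. Few very low values were found and they gave no common step, so no reads were recovered.

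Python 3.11.15, pandas 2.3.3 and numpy 2.4.6 were used. Named loci were compared as log2 with a pseudocount of 1 FPKM, and the rule for counted and measured loci stands in the report; with 1 library per tissue there was no test. A run on simulated data, with changes well above the size rule and little noise, checked only that the code applies the rule. It does not show how the rule does near its limits. Gene lists (45) were matched by symbol, or by an older symbol that names no other gene, and members within joined names stayed out. Locus strand and span were compared with GENCODE M21. Promoters were RefSeq windows on GRCm38.p6.

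The naming rule took the 15 highest and 15 lowest counted loci, up to 8 measured members per list with the largest differences, fixed key genes, the 15 most abundant loci of each library and the 5 transcription factor genes furthest in each direction; not every locus it gave is described, and others named were chosen after their values were seen. The members and lists were chosen with earlier results of these data known. Of the counted loci, 33 had joined names, 41 covered under 30% of the annotated span, 6 lay on the other strand and 74 overlapped another locus by 50% or more. Alternatives were other pseudocounts, level and size rules, scalings and locus filters. Values of a few genes are not reported here.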

Additional observations from a re-analysis of the deposited data

How the results depend on the processing

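With 262 loci higher and 414 lower in liver as reported, a pseudocount of 5 FPKM gave 130 higher and 103 lower (55.8% higher), with 59 list members higher and 60 lower against 104 and 139. A level rule of 20 FPKM gave 156 higher and 159 lower (49.5% higher), with 69 and 72 list members. Rescaling to an equal total gave 744 lower and 28.3% higher, but it also raised all values and so loosened the counting rule. Rescaling by the median of ratios gave 48.8% higher. A size rule of 1 gave 642 higher and 1174 lower, and a size rule of 3 gave 118 higher and 122 lower (49.2% higher). The other alternatives moved these counts by less than 1.5 times, including leaving out the loci of the other-cell-type lists, which was added after seeing the data and gave 240 higher and 402 lower.

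Of 198 counted loci given by the naming rule, some of them not described in the report, 112 kept the call with a pseudocount of 5 FPKM, 120 with the 20 FPKM rule, 197 with equal totals and 192 with the median of ratios. None reversed, but no reversal was possible. A pseudocount or a filter cannot change the sign of a difference, and the rescalings moved the median by far less than the size rule. List medians that changed sign in at least 1 alternative were those of amino acid carriers, retinoic acid, erythroid, acinar, insulin-like growth factor, BMP, cell cycle and notochord genes. In windows of 250 bases before the start, TTAATNATT was in 9 windows of the loci higher in liver and 3 of those lower, and CAAAGTCCA in 5 and none. No paired analysis was possible because each tissue has 1 library. Without replicates or depth, the precision of any single value is unknown.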

Other observations

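Most counted loci stood in none of the lists: 158 of the 262 higher in liver and 275 of the 414 lower. Standing outside the lists was no trait of counted loci, since the lists held only 813 of the 10975 measured loci. The following were named for their size of difference after their values were seen, among single-name loci with no doubt about strand, span or overlap. On the liver side were Shbg, the sex hormone carrier, with 45.3 FPKM in liver and 0.0205 FPKM in dorsal pancreas, Soat2, which esterifies cholesterol, with 53.3 FPKM in liver and 0.735 FPKM in dorsal pancreas, Vcam1, an adhesion molecule, with 34.1 FPKM in liver and 0.113 FPKM in dorsal pancreas, and Qprt, of NAD synthesis from tryptophan, with 90.2 FPKM in liver and 4.34 FPKM in dorsal pancreas. Qprt lies downstream of Kynu on the same route and differed in the opposite direction. Igsf1, a membrane glycoprotein, had 79.3 FPKM in liver and 2.06 FPKM in dorsal pancreas, and Agmat, an agmatinase, had 32.6 FPKM in liver and 0.497 FPKM in dorsal pancreas. On the dorsal pancreas side were Chst2, a sulfotransferase, with 0.799 FPKM in liver and 33.1 FPKM in dorsal pancreas, Rtn1, a reticulon of neurons, with 0.629 FPKM in liver and 29.5 FPKM in dorsal pancreas, and Edn3, the endothelin ligand, with 0.325 FPKM in liver and 17.3 FPKM in dorsal pancreas. Edn3 was lower in liver and its receptor Ednrb, given above with the settings that end its call, was higher.

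Some families taken by gene symbol differed mildly as a whole, and others differed more. The median difference was 0.44 over 52 measured ribosomal proteins, 0.48 over 52 mitochondrial ribosomal proteins and 0.32 over 28 complex I subunits, with no member counted, beside -0.15 for all measured loci. Over 253 Zfp zinc finger genes the median was -0.47, and 3 were lower in liver. Of 12 measured serpins 7 were higher in liver and none lower, with a median of 2.77. Of 20 Kcn potassium channel genes 4 were lower in liver and none was higher, with a median of -0.82. Of 15 Cacn calcium channel genes 5 were lower in liver and none was higher, with a median of -1.37.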
